A study of Mus musculus with 12 samples.

Results

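The 9 genes described here are members of the insulin-like growth factor system, chosen by name: the ligands Igf1 and Igf2, the receptor Igf1r and the binding proteins Igfbp2, Igfbp3, Igfbp4, Igfbp5, Igfbp6 and Igfbp7. All 9 were found among the 32285 genes of a single-cell count matrix from mouse hippocampus. The mice were 9-week-old C57/BL6J females that received either cisplatin, which is a chemotherapy drug containing platinum, or phosphate-buffered saline (PBS). Some mice of each arm also had 40 Hz sound pulses and light flicker for 1 h on each of 21 days, and hippocampi were collected on day 22. The 4 groups were Cisplatin stim (drug with stimulation), Cisplatin nonstim (drug without it), PBS stim (saline with stimulation) and PBS nonstim (saline without it), with 3 libraries each. Replicate 1 of every group came from 2 hippocampi of 1 animal, and replicates 2 and 3 each pooled 4 hippocampi of 2 animals. In the authors' library names, replicate 1 begins with 20 and replicates 2 and 3 begin with 21, called first prefix (4 libraries) and second prefix (8 libraries) here.

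Igf1 and Igf2 are secreted peptides that bind the receptor tyrosine kinase Igf1r, which signals to growth and survival through insulin receptor substrates and Akt kinases. The binding proteins hold the ligands in extracellular fluid and can restrict or prolong their access to the receptor, and proteases release the ligands by cutting the binding proteins. In the adult brain Igf2 is known as a product of the choroid plexus and the meninges, and brain endothelium is rich in Igf1r.

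The matrix held 19834 cells, 611 to 2772 per library, with 3964338 to 17656020 unique molecular identifiers (UMIs, 1 per captured transcript) per library. The authors assigned 12 cell types, and 68 of 71 marker genes were highest in their own type. The exceptions were Stmn2, Acta2 and Slc6a13, and Slc6a13 was at 0 in fibroblasts. A level is given as CPM, the share of a library's UMIs of that cell type that belongs to the gene, on the CPM scale, for libraries with at least 10 cells of the type. Of the cell barcodes, 56 occurred in more than 1 library. The choroid plexus transcript Ttr appeared in every cell type, at 311 to 717 pooled CPM outside the choroid plexus. UMIs from Gm42418, AY036118 and Lars2, transcripts related to ribosomal RNA repeats, made up 1.87 to 3.65% of the second-prefix PBS libraries and 0.340 to 0.782% of all other libraries.

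The 9 genes were led by 6 different cell types. Igf1 was highest in immune cells, Igf2 and Igfbp2 in choroid plexus, Igf1r in endothelium, Igfbp7 in pericytes, Igfbp3 in oligodendrocyte precursor cells (OPC), and Igfbp4, Igfbp5 and Igfbp6 in fibroblasts. Fibroblast values rest on 3 libraries, all from cisplatin mice, since PBS libraries held 0 to 4 such cells. Types next to each other in a gene's order of mean log2(CPM + 1) were compared within libraries by a two-sided exact sign-flip permutation test, and 9 of 84 adjacent pairs were called at an adjusted p under 0.05. Pairs with 6 libraries, the fewest tested, allow no p under 0.03125 in this test. Some other pairs had no UMI in either type. Such pairs had little or no room for a call, so the count is not a rate of differences.

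**Figure D1:**
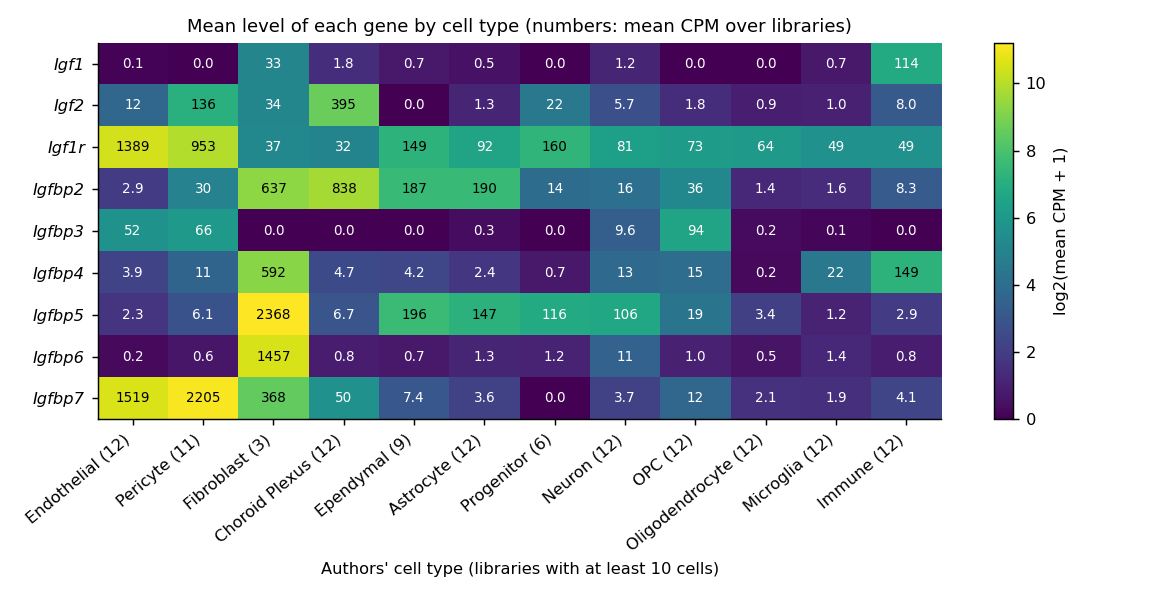
Mean level of the 9 genes (rows) in the authors' 12 cell types (columns, with the number of libraries that held at least 10 cells), coloured by log2(mean CPM + 1) and labelled with the mean CPM. Igf1r and Igfbp7 lead in endothelium and pericytes (1389 and 2205 CPM), Igf2 in choroid plexus (395 CPM), and Igfbp5 and Igfbp6 in fibroblasts (2368 and 1457 CPM).

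Igf1 was a gene of few UMIs: 288 in all cells. It averaged 114 ± 58.2 CPM (SD, n = 12) in immune cells, which held 70.1% of its UMIs, and 33.3 ± 28.6 CPM (SD, n = 3) in fibroblasts. Microglia held 28 Igf1 UMIs and 0.712 CPM on average, and OPC, oligodendrocytes, pericytes and progenitors held none. A count of 0 in oligodendrocytes allows up to 0.09 CPM, a limit of 3 counts that covers counting error only. All 202 immune UMIs fell in the authors' cluster 15, where S100a8 had 5754, Cd74 3057, Mrc1 2305 and H2-Aa 1170.3 pooled CPM. Cluster 14, the other immune cluster, had Cx3cr1 at 1041 pooled CPM and no Igf1 UMI among 547733. Over the libraries with at least 10 cells of cluster 15, Igf1 ran between 64.7 CPM in Cisplatin stim 3 and 321 CPM in PBS nonstim 2.

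Igf2 averaged 395 ± 326 CPM (SD, n = 12) in choroid plexus, which held 90.3% of its UMIs, and 136 ± 89.6 CPM (SD, n = 11) in pericytes. Choroid plexus was above pericytes in 10 of 11 libraries, adjusted p = 0.0365 (exact test). By mean CPM fibroblasts followed at 34.0 ± 39.0 CPM (SD, n = 3), but all 72 fibroblasts pooled, with 53 Igf2 UMIs, gave 134 CPM. Progenitors, with 4 Igf2 UMIs in 197 cells, averaged 21.7 CPM over 6 libraries, with a median of 2.15 and a maximum of 119 CPM. The other types stayed at or below 11.9 CPM, the mean of endothelium. Igf2 shares its strand with Gm49394 and Mir483 and overlaps the antisense gene Igf2os, and how reads were divided among them was not stated. Pericytes held 439 Igf2 and 2494 Ttr UMIs, and choroid plexus held 6900 Igf2 and 3063163 Ttr UMIs. The part of choroid plexus RNA in pericyte Igf2 was not tested.

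Igf1r was detected in every cell type. It averaged 1389 ± 158 CPM (SD, n = 12) in endothelium and 953 ± 177 CPM (SD, n = 11) in pericytes, and endothelium was higher in 10 of 11 libraries, adjusted p = 0.0273 (exact test). Of endothelial cells 89.8% had an Igf1r UMI. The remaining types averaged 32.1 CPM in choroid plexus to 159.7 CPM in progenitors, and no neighbouring pair tested among them was called. Pairs with fibroblasts were not tested, and pairs with progenitors had few libraries. Pericytes were above progenitors in 6 of 6 libraries and still not called (adjusted p = 0.154, exact test). A missing call therefore does not show that levels are alike. Pericytes also carried endothelial markers, summed to 9079 to 11932 CPM in every library of the 4 groups against 14956 to 17967 CPM in endothelium. The part of endothelial RNA in pericyte values was not tested.

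Igfbp2, which binds Igf2 with preference and is secreted into cerebrospinal fluid, averaged 838 ± 289 CPM (SD, n = 12) in choroid plexus, 637 ± 253 CPM (SD, n = 3) in fibroblasts, 189.8 ± 50.0 CPM (SD, n = 12) in astrocytes and 187 ± 52.5 CPM (SD, n = 9) in ependymal cells. Ependymal cells were above OPC in 9 of 9 libraries, adjusted p = 0.0365 (exact test). Igfbp3, the main carrier of these peptides in blood, averaged 93.8 ± 26 CPM (SD, n = 12) in OPC, 65.5 ± 55.4 CPM (SD, n = 11) in pericytes and 51.9 ± 57.0 CPM (SD, n = 12) in endothelium, 3 types that were not told apart as neighbours. Neurons had 9.62 CPM of Igfbp3, and every other type was at or below 0.281 CPM.

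Igfbp4 averaged 592 ± 440.2 CPM (SD, n = 3) in fibroblasts, 149 ± 68.0 CPM (SD, n = 12) in immune cells and 21.6 ± 8.05 CPM (SD, n = 12) in microglia. Igfbp5 averaged 2368 ± 528 CPM (SD, n = 3) in fibroblasts, then 196 ± 81.1 CPM (SD, n = 9) in ependymal cells, 147 ± 55.7 CPM (SD, n = 12) in astrocytes, 116 ± 59.8 CPM (SD, n = 6) in progenitors and 106 ± 34.9 CPM (SD, n = 12) in neurons. Neurons were above OPC for Igfbp5 in 12 of 12 libraries, adjusted p = 0.0205 (exact test). Igfbp6 was almost a fibroblast gene, at 1457 ± 179 CPM (SD, n = 3) with 80.7% of its 673 UMIs there, followed by neurons at 10.6 CPM. Igfbp7, a matrix protein of vessels that binds the ligands weakly, averaged 2205 ± 310.2 CPM (SD, n = 11) in pericytes and 1519 ± 188 CPM (SD, n = 12) in endothelium, and pericytes were higher in 11 of 11 libraries, adjusted p = 0.0205 (exact test).

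The genes whose mean log2(CPM + 1) over the 12 cell types was most like that of each member were named by Pearson's r, as a description over types that share the same libraries. Those of Igf1 were Cd7, H2-Aa and Adam33 (r = 0.974 to 0.985). Those of Igf2 were Tgtp1, Fap and Pln (r = 0.900 to 0.907), and those of Igf1r were Podxl, Apcdd1 and Stard4 (r = 0.922 to 0.936). Among the binding proteins, Igfbp2 was followed by Ctf1, Pdpn and Pdha1 (r = 0.922 to 0.927), Igfbp3 by Ptprr, Slc1a1 and Meox1 (r = 0.933 to 0.952) and Igfbp4 by Fgl2, Vill and Cxcl16 (r = 0.865 to 0.909). Igfbp5 was followed by Dkk3, Angpt1 and Igsf3 (r = 0.898 to 0.919), Igfbp6 by Itgbl1, Eya2 and Krt12 (r = 0.995 to 0.996) and Igfbp7 by Itm2a, Zfp820 and Slc16a4 (r = 0.971 to 0.977).

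Igfbp3 rose in endothelium and pericytes of cisplatin mice, with and without stimulation, 6.47-fold and 5.98-fold averaged over stimulation, and was the only one of the 9 genes called in both of these drug comparisons. The question of both is what cisplatin does to hippocampal cells, and each was tested with edgeR's quasi-likelihood test on UMIs summed per library and cell type, with the library prefix as a term and Benjamini-Hochberg adjustment over all genes of a type. Calls were made where the adjusted p was under 0.05. Of the 9 genes 8 passed the filter on low counts in at least 1 of the 9 tested types, in 26 gene and type pairs, and Igfbp6 passed in none. Cisplatin nonstim against PBS nonstim called 2 of these 26 pairs, both of Igfbp3 and both higher, where 1.64% of all 69488 gene and type tests were called. Cisplatin stim against PBS stim called 3 pairs, all higher, where 3.89% of all tests were called.

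In endothelium, Igfbp3 stood at 34.4, 117 and 99.1 CPM in Cisplatin nonstim replicates 1, 2 and 3, against 4.51, 20.4 and 8.62 CPM in PBS nonstim. It stood at 27.4, 189 and 75.2 CPM in Cisplatin stim, against 10.1, 13.5 and 23.1 CPM in PBS stim. The lowest cisplatin library was above the highest PBS library, so the arms did not overlap. The log2 fold change was 2.73 ± 0.34 (SE), adjusted p = 0.000168 without stimulation (edgeR), where 0.945% of endothelial genes were called. With stimulation it was 2.66 ± 0.39 (SE), adjusted p = 0.000325 (edgeR), where 2.53% were called. The 499 endothelial Igfbp3 UMIs came from 119 cells: 95 of 709 in cisplatin libraries and 24 of 725 in PBS libraries. The share of endothelial cells with an Igfbp3 UMI had a median of 13.5% over 6 cisplatin libraries and 3.29% over 6 PBS libraries, with ranges of 9.82 to 18.2% and 2.73 to 5.38%. After thinning each cell to 2000 UMIs, which left out 117 cisplatin and 183 PBS cells, the medians were 7.40% and 2.10%. In microglia, which held only 4 Igfbp3 UMIs, the median share was 0 in both arms at median depths of 7150.5 and 6328.5 UMIs per cell, against 5366 and 4704 in endothelium. So few UMIs cannot show whether depth has a part in the endothelial shares.

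In pericytes, Igfbp3 stood at 92.7, 86.5 and 112 CPM in Cisplatin nonstim, against 13.9, 18.6 and 3.45 CPM in PBS nonstim. It stood at 177, 111 and 63.4 CPM in Cisplatin stim, against 32.6 and 9.52 CPM in PBS stim replicates 2 and 3, since PBS stim 1 had only 5 pericytes. The arms again did not overlap in CPM, but the 177 CPM of Cisplatin stim 1 came from 21 UMIs in 1 of 13 pericytes. The log2 fold change was 2.71 ± 0.44 (SE), adjusted p = 0.00242 without stimulation (edgeR), with 0.243% of pericyte genes called. With stimulation it was 2.45 ± 0.51 (SE), adjusted p = 0.023 (edgeR), with 0.455% called, and this call was lost without Cisplatin stim 2 or without PBS stim 3. The share of pericytes with an Igfbp3 UMI had a median of 14.8% over 6 cisplatin libraries (7.69 to 40%) and 6.67% over 5 PBS libraries (3.125 to 10%). These ranges overlapped. After thinning the medians were 8.57% (6.19 to 13.4%) and 1.90% (0.333 to 3.40%). The PBS pericyte values rest on 1 to 11 UMIs a library. Pericytes carried endothelial markers, as described for Igf1r, so the 2 types are not independent of each other. The part of endothelial RNA in the pericyte Igfbp3 values was not tested.

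In OPC, where Igfbp3 was highest over all libraries together though not in the cisplatin groups, its level was 80.5, 104 and 99.2 CPM in Cisplatin nonstim, against 93.2, 62.0 and 114 CPM in PBS nonstim. It was 85.6, 94.3 and 159 CPM in Cisplatin stim, against 91.8, 58.0 and 84.5 CPM in PBS stim. OPC averaged 94.5 and 113 CPM in Cisplatin nonstim and Cisplatin stim, where pericytes averaged 97.1 and 117 CPM. The arms overlapped in OPC, and the averaged log2 fold change of 0.42 ± 0.18 (SE) was not called (edgeR, adjusted p = 0.242). The drug effect on log2(CPM + 1) was larger in endothelium than in OPC by 2.24 (exact permutation p = 0.00476, adjusted p = 0.0381 over 16 type pairs) and larger in pericytes than in OPC by 2.59 (exact permutation p = 0.00952, adjusted p = 0.0381). Both tests permuted the drug label within the prefix, two-sided, with 0.00476 the smallest p they allow. The 16 pairs were set after the values were seen, with 1 type of each pair taken for its call.

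**Figure D2:**
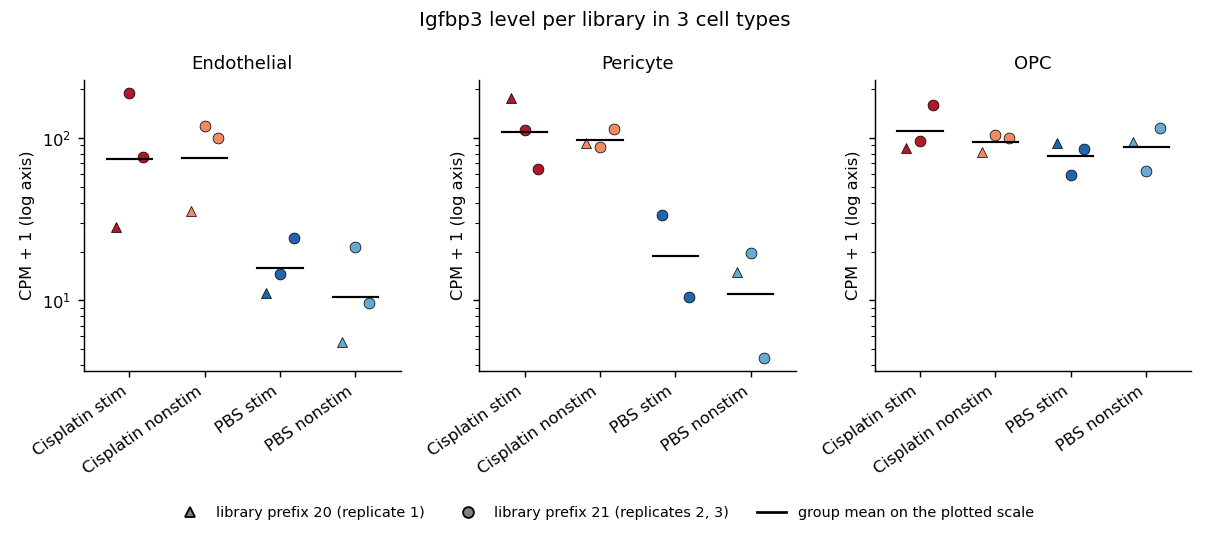
Igfbp3 level per library (CPM + 1, log axis) in endothelium, pericytes and OPC, by group, with triangles for the first prefix, circles for the second and a line at the group mean of the log values. Every cisplatin library lies above every PBS library in endothelium (at least 27.4 CPM against at most 23.1 CPM) and in pericytes (at least 63.4 CPM against at most 32.6 CPM), and the arms overlap in OPC.

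The library-wide share of Gm42418, AY036118 and Lars2 UMIs moved with the drug in the second prefix. The same share computed within each cell type, whose values are not given here, was added to the fit as a covariate. With it none of the 9 genes was called in any of the 6 comparisons. For Igfbp3 averaged over stimulation, that fit gave a log2 fold change of 1.77 (adjusted p = 0.201) in endothelium and 2.92 (adjusted p = 0.122) in pericytes. In the first prefix the library-wide share was 0.340 and 0.393% in the 2 cisplatin libraries and 0.542 and 0.479% in the 2 PBS libraries. There, endothelial Igfbp3 was 34.4 CPM in Cisplatin nonstim 1 and 27.4 CPM in Cisplatin stim 1, against 4.51 CPM in PBS nonstim 1 and 10.1 CPM in PBS stim 1. Of the markers tested in endothelium, none of 6 endothelial, 4 pericyte, 4 astrocyte and 3 oligodendrocyte genes was called between the arms averaged over stimulation. The choroid plexus marker Ttr was called higher by 2.16 on the log2 scale, and the microglial marker C1qa (-1.37) and the neuronal marker Meg3 (-1.70) were called lower. Choroid plexus cells held 2 Igfbp3 UMIs. The part of RNA from other cell types in the endothelial Igfbp3 values was not tested.

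The Igfbp3 gene lies at chr11:7206086-7213923, minus strand (GRCm38, GENCODE M21), and no other annotated gene overlaps it. The 250 bases before its start are shown because Igfbp3 was called in both vascular types (chr11:7213924-7214173, minus strand, RefSeq on GRCm38.p6, written 5′ to 3′). Capitals mark overlapping matches to the TATA box letters TATANA on either strand, found in 22.6% of the 32851 windows of the same length.
Igfbp3: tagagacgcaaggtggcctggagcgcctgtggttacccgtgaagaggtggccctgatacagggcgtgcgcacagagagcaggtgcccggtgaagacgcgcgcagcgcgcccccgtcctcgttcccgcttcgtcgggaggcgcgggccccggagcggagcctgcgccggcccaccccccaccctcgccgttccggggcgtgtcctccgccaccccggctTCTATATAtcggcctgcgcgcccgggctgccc
No match to the GC box GGGCGG, the E-box CACGTG, the forkhead letters GTAAACA or the hormone receptor element ACANNNTGT was found in this window on either strand. Those letters occur in 32.7, 6.02, 3.17 and 5.84% of all windows, and the 5 motifs were chosen with the results known.

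Averaged over stimulation, the cisplatin comparison called 4 of the 26 pairs, 3 higher and 1 lower, where 9.72% of all 69488 tests were called. They were Igfbp3 in endothelium at 2.69 ± 0.26 (SE), adjusted p = 5.07e-07 (edgeR), Igfbp3 in pericytes at 2.58 ± 0.34 (SE), adjusted p = 7.07e-05 (edgeR), Igf1r in microglia and Igf1r in choroid plexus. These types had 5.66, 1.47, 14.8 and 14.4% of their genes called. The median log2 fold change of the 26 pairs was 0.05, and that of all tests was -0.0039.

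**Figure D3:**
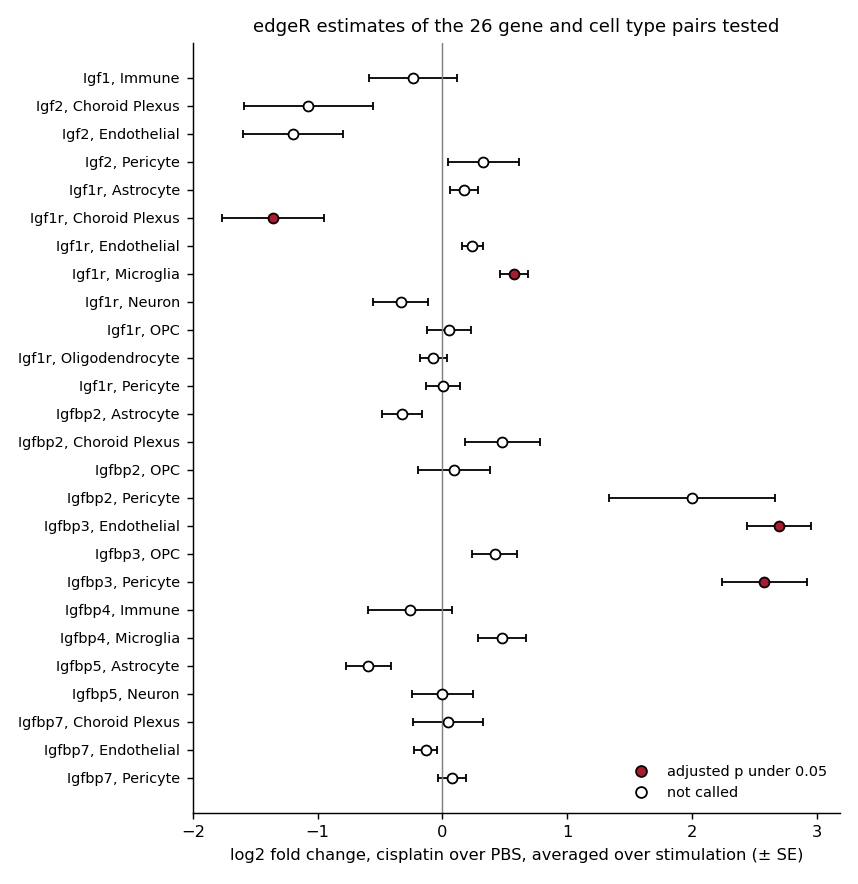
Log2 fold change of cisplatin over PBS averaged over stimulation, with its SE, for the 26 gene and cell type pairs that passed the filter (edgeR). Filled points are the 4 pairs called, with Igfbp3 in endothelium (2.69) and pericytes (2.58) farthest to the right and Igf1r in choroid plexus (-1.36) farthest to the left.

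Igf1r was higher in the microglia of stimulated cisplatin mice. Its level was 51.1, 83.2 and 69.1 CPM in Cisplatin stim, against 29.3, 31.9 and 44.6 CPM in PBS stim, without overlap. It was 43.2, 58.2 and 47.4 CPM in Cisplatin nonstim, against 51.6, 41.2 and 42.7 CPM in PBS nonstim, with overlap. The log2 fold change was 0.95 ± 0.17 (SE), adjusted p = 0.00168 with stimulation (edgeR), where 5.24% of microglial genes were called, 0.20 ± 0.15 (SE) without it (adjusted p = 0.498) and 0.58 ± 0.11 (SE), adjusted p = 0.0015 averaged (edgeR). The interaction, which tests whether the drug effect differs with stimulation, was 0.76 ± 0.22 (SE; unadjusted p = 0.00283, adjusted p = 0.641 by edgeR). It had the smallest p of the 26 pairs in that comparison but was not called. The share of microglia with an Igf1r UMI had a median of 28.1% in cisplatin libraries and 19.2% in PBS libraries, and of 10.5% and 7.80% after thinning to 2000 UMIs. With the covariate for the ribosomal RNA-like transcripts the averaged value was 0.30 (adjusted p = 0.536).

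The averaged effect on microglial Igf1r, on log2(CPM + 1), exceeded that in neurons by 1.30 (exact permutation p = 0.0143, adjusted p = 0.0457), in oligodendrocytes by 0.65 (exact permutation p = 0.00952, adjusted p = 0.0381) and in pericytes by 0.49 (exact permutation p = 0.00476, adjusted p = 0.0381). By edgeR, neuronal Igf1r itself had an averaged -0.33 ± 0.22 (SE) and was not called (adjusted p = 0.382). The differences from endothelium, astrocytes, OPC and choroid plexus were not called. Markers of other types moved with the drug in these cells. In neurons 4 of 6 astrocyte markers (median log2 fold change 1.45) and 3 of 3 oligodendrocyte markers (1.82) were called, and in microglia 1 of 5 astrocyte and 2 of 5 oligodendrocyte markers and 2 of 6 microglial markers were called. The authors' neuron clusters 10, 12 and 19 averaged 40.9, 97.5 and 178 CPM of Igf1r. The part of these in the differences was not tested. In endothelium, where the gene was highest, Igf1r was 1606, 1586 and 1642 CPM in Cisplatin stim, against 1328, 1242 and 1157 CPM in PBS stim, without overlap. There it was 1352, 1485 and 1371 CPM in Cisplatin nonstim, against 1358, 1309 and 1229.5 CPM in PBS nonstim. The log2 fold change was 0.39 ± 0.12 (SE) with stimulation and 0.24 ± 0.08 (SE) averaged, neither called (edgeR, adjusted p = 0.0704 and 0.0841). DESeq2 called it with stimulation, at 0.39 (adjusted p = 0.0322).

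**Figure D4:**
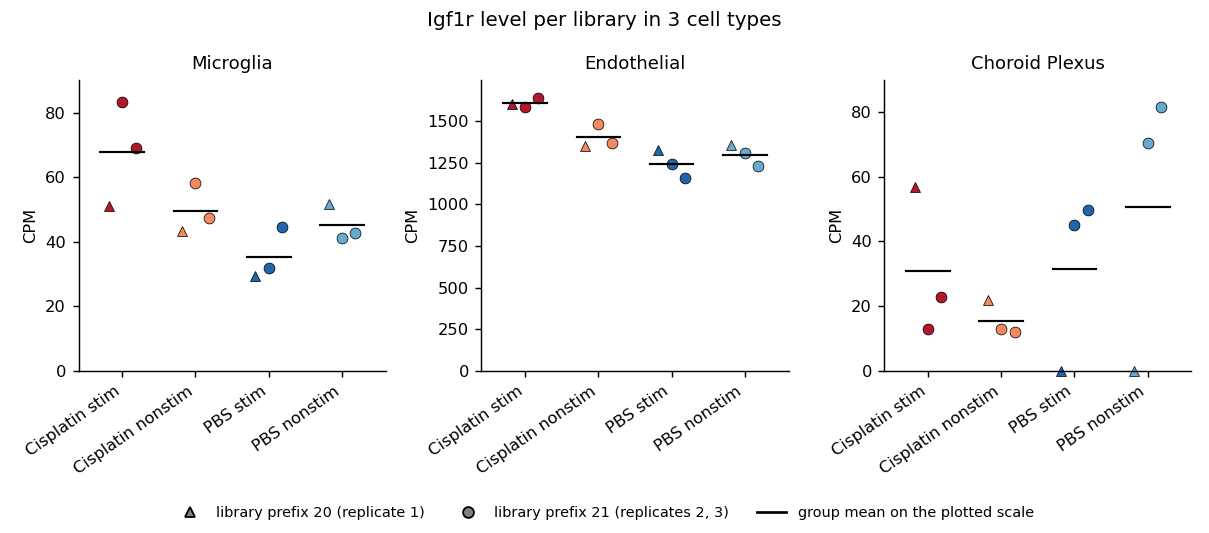
Igf1r level per library (CPM, each panel with its own axis from 0) in microglia, endothelium and choroid plexus, by group, with triangles for the first prefix, circles for the second and a line at the group mean. In microglia the 3 Cisplatin stim libraries (51.1 to 83.2 CPM) lie above the 3 PBS stim libraries (29.3 to 44.6 CPM), and in choroid plexus both first-prefix PBS libraries are at 0.

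In choroid plexus Igf1r was called lower under cisplatin, but in the first prefix the cisplatin libraries were the higher ones. Its level was 21.7, 12.9 and 12 CPM in Cisplatin nonstim, against 0, 70.3 and 81.5 CPM in PBS nonstim. It was 56.7, 12.8 and 22.7 CPM in Cisplatin stim, against 0, 44.9 and 49.8 CPM in PBS stim. In the second prefix all cisplatin libraries were below all PBS libraries, while the first-prefix PBS libraries, with 29 and 18 choroid plexus cells, had no Igf1r UMI. Those counts of 0 allow up to 19.4 CPM in PBS nonstim 1 and 29.9 CPM in PBS stim 1. The averaged log2 fold change was -1.36 ± 0.41 (SE), adjusted p = 0.0388 (edgeR), but the mean of log2(CPM + 1) over libraries differed by 0.41, with the opposite sign. DESeq2 gave -0.78 (adjusted p = 0.433), the fit with the replicate block -1.28 (adjusted p = 0.0891) and the fit without cells over 10% mitochondrial UMIs -1.02 (adjusted p = 0.0967). Leaving out any 1 of the 8 second-prefix libraries also ended the call, with adjusted p of 0.0871 to 0.199. The second prefix alone gave -2.38 without stimulation (adjusted p = 2.73e-06, edgeR), where 9.68% of all tests were called. Igf1r averaged 60.6 CPM in the authors' choroid plexus cluster 4 and 5.95 CPM in cluster 3. A fit of cluster 4, added after the values were seen, gave an averaged -1.51 ± 0.21 (SE), adjusted p = 4.07e-07 (edgeR, 10 libraries). There 48.5% of genes were called, and no first-prefix PBS library had the 10 cells needed.

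The Igf1r gene lies at chr7:67952827-68233668, plus strand (GRCm38, GENCODE M21). The 250 bases before its RefSeq start, which lies upstream of the GENCODE start, are shown for comparison with Igfbp3 (chr7:67952007-67952256, plus strand, RefSeq on GRCm38.p6). Capitals mark 2 matches to the GC box letters GGGCGG, and none of the other 4 motifs was found there.
Igf1r: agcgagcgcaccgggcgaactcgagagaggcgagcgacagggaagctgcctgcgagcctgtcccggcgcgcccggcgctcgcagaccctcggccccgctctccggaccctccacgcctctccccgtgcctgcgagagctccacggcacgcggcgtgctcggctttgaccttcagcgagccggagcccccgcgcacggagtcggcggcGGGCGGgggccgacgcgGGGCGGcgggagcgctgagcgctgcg
The windows of Igf1r and Igfbp3 hold 77.6 and 73.2% G and C.

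Igf2 in choroid plexus was far lower in the cisplatin libraries of the second prefix and not in those of the first. In the second prefix it was 165 and 136 CPM in Cisplatin nonstim, against 854 and 862 CPM in PBS nonstim. It was 170.1 and 271 CPM in Cisplatin stim, against 800.3 and 758 CPM in PBS stim. In the first prefix Cisplatin nonstim 1 and Cisplatin stim 1 had 186 and 391 CPM, against 90.7 CPM in PBS nonstim 1 and 49.8 CPM in PBS stim 1, from 14 and 5 UMIs. The averaged log2 fold change over all libraries was -1.07 ± 0.51 (SE) and was not called (edgeR, adjusted p = 0.145). With the ribosomal RNA-like share as a covariate its sign turned, to 0.11 averaged (adjusted p = 0.998) and 0.34 with stimulation (adjusted p = 0.984). In the second prefix alone it was -1.98 (adjusted p = 4.34e-09) by edgeR, where 51.2% of choroid plexus genes were called. Averaged over stimulation, markers also moved in choroid plexus. Of its own 6 markers only Ttr, at 175035 pooled CPM, was called, higher by 1.048 on the log2 scale. The fibroblast marker Col1a2 (-1.174) was called lower. Called higher were 1 of 2 astrocyte markers, 2 of 5 oligodendrocyte markers and the OPC marker Pdgfra (1.165). None of 4 ependymal and 3 microglial markers was called. The part of these shifts in the Igf2 and Igf1r values was not tested.

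The authors split choroid plexus cells into clusters 3 and 4, and the first-prefix PBS libraries had 22 and 17 cells of cluster 3 but 7 and 1 of cluster 4. Within cluster 4, Igf2 was 181, 221 and 207 CPM in Cisplatin nonstim, against 1097 and 1252 CPM in PBS nonstim replicates 2 and 3. It was 557, 277 and 414 CPM in Cisplatin stim, against 1158 and 1091 CPM in PBS stim replicates 2 and 3. No cisplatin library reached the PBS level there, but all 4 PBS libraries with at least 10 cells of cluster 4 are of the second prefix. Their library-wide ribosomal RNA-like share was 1.87 to 3.65%, against 0.340 to 0.782% in every cisplatin library, so drug and that share cannot be told apart in cluster 4. The averaged log2 fold change was -1.87 ± 0.14 (SE), adjusted p = 1.28e-13 in cluster 4 (edgeR, 10 libraries), where 48.5% of genes were called. In cluster 3 it was -1.01 ± 0.24 (SE), adjusted p = 0.0127 (edgeR, 12 libraries), where 7.70% of genes were called. Both fits were added after the values were seen.

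**Figure D5:**
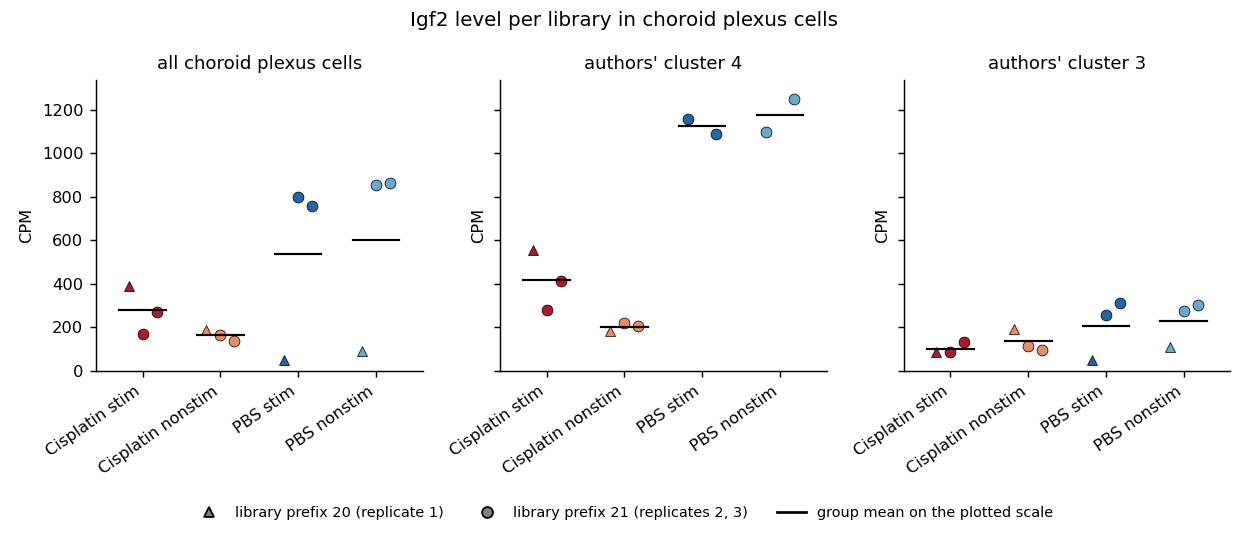
Igf2 level per library (CPM) in all choroid plexus cells, in the authors' cluster 4 and in cluster 3, by group, for libraries with at least 10 cells, with triangles for the first prefix, circles for the second and a line at the group mean. Second-prefix PBS libraries (758 to 862 CPM over all choroid plexus cells) lie above the cisplatin libraries of that prefix (136 to 271 CPM), and the first-prefix PBS libraries lie at 49.8 and 90.7 CPM.

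Several genes came near the threshold without passing it. Igfbp5 in astrocytes, a binding protein that also binds matrix, was 92.7, 78.7 and 150.1 CPM in Cisplatin stim, against 224, 202 and 114 CPM in PBS stim. It was 106, 116 and 164 CPM in Cisplatin nonstim, against 145, 113 and 259 CPM in PBS nonstim. The groups overlapped, and the averaged value was -0.59 ± 0.18 (SE; adjusted p = 0.0511, edgeR). Igf2 in endothelium had -1.20 ± 0.40 (SE; adjusted p = 0.0786), Igfbp4 in microglia 0.48 ± 0.19 (SE; adjusted p = 0.105) and Igfbp2 in pericytes 2.00 ± 0.67 (SE; adjusted p = 0.155), all by edgeR. In the second prefix alone, Igf2 in endothelium (-1.65, adjusted p = 0.0164) and Igfbp4 in microglia (0.76, adjusted p = 0.00147) were called by edgeR. Igf2 in endothelium was also called without Cisplatin stim 1 or PBS nonstim 1, and Igfbp4 in microglia without PBS stim 1 or Cisplatin nonstim 1. Igfbp2 in choroid plexus, its leading type, had 0.48 ± 0.30 (SE; adjusted p = 0.259, edgeR).

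Other pairs gave small or poorly determined values. Igfbp7 had -0.13 ± 0.09 (SE) in endothelium and 0.07 ± 0.11 (SE) in pericytes. Igf1 in immune cells, the one type where it could be tested, stood at 95, 89.6 and 118 CPM in Cisplatin nonstim, against 109, 222 and 153 CPM in PBS nonstim. It stood at 93.7, 186 and 49.0 CPM in Cisplatin stim, against 0, 122 and 130.1 CPM in PBS stim. The groups overlapped, at -0.24 ± 0.35 (SE; adjusted p = 0.835, edgeR), and the 0 of PBS stim 1 allows up to 109 CPM. Igfbp4 in immune cells had -0.26 ± 0.34 (SE; adjusted p = 0.797, edgeR).

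No member was called for 40 Hz stimulation in whole cell types. Cisplatin stim against Cisplatin nonstim, which asks what stimulation does in drug-treated mice, called 0 of 26 pairs by edgeR and 0 by DESeq2, with 3 at an unadjusted p under 0.05, where 0.196% of all tests were called. The smallest p was that of Igfbp2 in pericytes, at 50.4, 9.82 and 5.77 CPM in Cisplatin stim, against 98.7, 38.4 and 86.3 CPM in Cisplatin nonstim. Its log2 fold change of -2.12 ± 0.60 (SE) had an adjusted p of 0.4 (edgeR). PBS stim against PBS nonstim called 0 pairs by edgeR and 0 by DESeq2, with 0 at an unadjusted p under 0.05, where 0% of all tests were called and 1992 of 69488 had an unadjusted p under 0.05. The smallest p there was that of Igf1r in microglia, with a log2 fold change of -0.30 ± 0.16 (SE; adjusted p = 1.00, edgeR). The interaction of drug and stimulation called 0 pairs by edgeR and 0 by DESeq2, with 2 at an unadjusted p under 0.05, where 0.0245% of all tests were called. One exception came from the added fit of choroid plexus cluster 4, where Igf2 was called higher in Cisplatin stim than in Cisplatin nonstim, at 0.90 ± 0.18 (SE), adjusted p = 0.00831 (edgeR, 10 libraries), with 0.255% of genes called. In the second prefix alone it was 0.59 ± 0.18 (SE), adjusted p = 0.798 (edgeR, 8 libraries), and in cluster 3 it was -0.49 ± 0.34 (SE), adjusted p = 1 (edgeR).

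Of 33 further genes of the pathway (insulin receptor and substrates, Akt and Foxo members, proteases of the binding proteins and others), 24 could be tested, in 138 gene and type pairs. Averaged over stimulation 13 pairs were called, 9 higher and 4 lower, or 9.42%, close to the 9.72% of all tests. Without stimulation 5 were called, all higher, or 3.62%, against 1.64% of all tests. With stimulation 10 were called, 7 higher and 3 lower, or 7.25%, against 3.89% of all tests. Stimulation in cisplatin mice called 1 pair (0.725%, against 0.196% of all tests), lower: Pdpk1, the kinase that activates Akt, in oligodendrocytes at -0.70 ± 0.15 (SE), adjusted p = 0.0318 (edgeR). Stimulation in PBS mice and the interaction called 0 by edgeR, with 3 and 10 at an unadjusted p under 0.05.

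Htra1, a secreted serine protease that can cut Igfbp5, was higher under cisplatin in both cell types of the oligodendrocyte lineage. In OPC it stood at 958, 344 and 239 CPM in Cisplatin stim, against 149.9, 88.8 and 91.2 CPM in PBS stim. It stood at 365, 191 and 275 CPM in Cisplatin nonstim, against 206, 107 and 67.8 CPM in PBS nonstim. In each prefix the lowest cisplatin library was above the highest PBS library. The averaged log2 fold change was 1.64 ± 0.15 (SE), adjusted p = 1.11e-09 in OPC (edgeR), with 2.26% of OPC genes called, and 1.52 ± 0.12 (SE), adjusted p = 4.52e-08 in oligodendrocytes (edgeR), with 23.3% called. With the ribosomal RNA-like covariate these were 1.66 (adjusted p = 3.13e-06) and 1.30 (adjusted p = 8.10e-05), so both averaged calls held there. Over the 6 comparisons, 13 of the 22 calls named by the rule among pathway genes lost the threshold with that covariate, and 8 lost it with DESeq2. Htra1 overlaps Fgfr2 on the other strand, and Irs2 overlaps 9530052E02Rik on the other strand.

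Irs2, which docks to the activated receptor, was lower in oligodendrocytes, at 58.3, 69.2 and 72.4 CPM in Cisplatin stim, against 119, 131 and 124 CPM in PBS stim. It was 94.2, 78.7 and 91.2 CPM in Cisplatin nonstim, against 107, 108 and 130.4 CPM in PBS nonstim, and the arms did not overlap. The averaged log2 fold change was -0.62 ± 0.09 (SE), adjusted p = 3.99e-05 (edgeR), and with stimulation it was -0.89 ± 0.13 (SE), adjusted p = 0.0001 (edgeR). With the covariate the averaged value was -0.46 (adjusted p = 0.0382). In microglia the proteases Htra3 and Mmp14 rose, at 1.48 ± 0.27 and 0.81 ± 0.16 (SE; adjusted p = 0.000895 and 0.00197, edgeR), as did the kinase Akt1 at 0.47 ± 0.10 (SE; adjusted p = 0.00252, edgeR). With the covariate Mmp14 had 1.22 (adjusted p = 0.0335), and the calls of Htra3, 0.81 (adjusted p = 0.497), and Akt1, 0.48 (adjusted p = 0.183), were lost. In endothelium Foxo3, a transcription factor that Akt holds back, stood at 27.4, 47.6 and 62.6 CPM in Cisplatin stim, against 20.2, 18.6 and 23.1 CPM in PBS stim. It stood at 19.4, 43.9 and 48.5 CPM in Cisplatin nonstim, against 28.6, 22.0 and 25.9 CPM in PBS nonstim. Cisplatin libraries were above all PBS libraries in the second prefix, and the arms overlapped in the first. The averaged log2 fold change was 0.91 ± 0.21 (SE), adjusted p = 0.00943 (edgeR), and with the covariate it was 0.36 (adjusted p = 0.836). With stimulation Pdpk1 had -0.58 and Foxo3 0.60 in oligodendrocytes (adjusted p = 0.0202 and 0.0285, edgeR), and both calls were lost with the covariate and with DESeq2. Other pairs called there were Htra1 in OPC (2.13) and oligodendrocytes (1.92), Htra3 in microglia (1.54) and Foxo3 in endothelium (1.28). Without stimulation the 5 called pairs were Htra1 in oligodendrocytes (1.11) and OPC (1.15), and Htra3 (1.43), Mmp14 (0.84) and Akt1 (0.48) in microglia.

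In the same genome build, Igf1 lies at chr10:87858265-87937042, plus strand, where it overlaps the antisense gene Igf1os, and Igf2 at chr7:142650766-142666816, minus strand. Igfbp2 lies at chr1:72824503-72852474, plus strand, and Igfbp5 at chr1:72857932-72874884, minus strand. Igfbp4 lies at chr11:99041244-99054392, plus strand, Igfbp6 at chr15:102144362-102149511, plus strand, and Igfbp7 at chr5:77349240-77408041, minus strand, where it overlaps Polr2b and Gm34648 on the other strand.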

How the data were processed

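Hippocampal cells of 12 libraries were measured with 10x Genomics 3′ v3.1 chemistry, per the labels' protocols. The submitters' processing notes name Cell Ranger 5.0.0, Scanpy and the build mm10 without roles, and no source used here states the annotation release. The deposited matrix gives raw UMI counts for each cell and gene, and the cell types, clusters and library names are the authors' own, per the file headers. A score that the authors deposited beside each gene name, on a scale not stated, was not analysed. Doublets were marked for none of the deposited cells, and none were removed here.

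UMIs were added up within each library and type (at least 10 cells, and 2 such libraries per group), so 9 types were tested, and fibroblasts, progenitors and ependymal cells were not. In R 4.3.3, edgeR 4.0.16 fitted all genes of a type to the 4 groups plus the library prefix, with TMM and filterByExpr, over all 12 libraries (quasi-likelihood test, Benjamini-Hochberg within type and comparison). The test was checked on counts simulated for endothelium and oligodendrocytes with the same spread for all genes. That check held no prefix effect and no drug-linked ribosomal RNA-like share, so it does not cover these. The SE given with an edgeR value is the absolute log2 fold change divided by the square root of the test's F statistic. It is approximate and was not taken from the fit itself. Levels are plain CPM, and log2(CPM + 1) was used for permutation tests. DESeq2 1.42.0 was an alternative test. Depth, 3964338 to 17656020 UMIs a library, limits genes with few UMIs: limits and shares cover counting error only.

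Alternatives were RLE size factors, no filter, DESeq2, a replicate block, the second prefix alone, removal of the 4868 cells over 10% mitochondrial UMIs (13 genes), a minimum of 20 cells, the ribosomal RNA-like share of the UMIs of the fitted cell type as a covariate, and each library left out. The labels do not say that equal replicate numbers share an animal. Deviations from group means correlated by 0.456, 0.262 and 0.253 for numbers 1, 2 and 3 between PBS stim and PBS nonstim. Between Cisplatin stim and Cisplatin nonstim they correlated by 0.284, 0.0672 and 0.0698. The prefix sets replicate 1 apart in every group and was not removed first, so these values cannot tell pairing from prefix. Nothing in the labels says more of how replicates were made, so p-values measure the spread between these libraries.

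The members, the gene lists and the alternatives were chosen with earlier results of these data known. The rule named all 9 members, every member called in a comparison or else the one with the smallest p, at most 8 called pathway pairs a comparison (1 of these genes is not reported here), and the 3 genes most like each member. The differences of effect between types, the thinned shares, the choroid plexus cluster fits, the motifs, and the uncalled pairs given as near the threshold or small were chosen after their values were seen. Promoter bases come from RefSeq on GRCm38.p6 (all 9 members matched, 2 shown), and gene positions from GENCODE M21 on GRCm38, which is the mm10 assembly.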

Additional observations from a re-analysis of the deposited data

Results flagged for a closer look

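The drug effect on a gene differed between cell types in 5 of 16 type pairs tested by an exact permutation of the drug label within the library prefix, on log2(CPM + 1), with values adjusted over the 16. The pairs were set after the values were seen, with 1 type of each pair taken for its call in these data. No share over other genes was computed for this test. For Igfbp3, cisplatin minus PBS was 2.54 in endothelium and 0.30 in OPC, a difference of 2.24 (adjusted p = 0.0381, exact). It was 2.92 in pericytes and 0.34 in OPC over the libraries that hold both, a difference of 2.59 (adjusted p = 0.0381, exact). The difference between endothelium and pericytes for Igfbp3 was not called (-0.42, adjusted p = 0.731, exact).

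For Igf1r, cisplatin minus PBS was 0.52 in microglia and -0.78 in neurons, a difference of 1.30 (adjusted p = 0.0457, exact). The differences from oligodendrocytes and pericytes were 0.65 and 0.49 (adjusted p = 0.0381 each, exact). The neuron values rest on 5 to 65 Igf1r UMIs a library, and edgeR gave neurons a smaller value, -0.33 ± 0.22 (SE), not called (adjusted p = 0.382).

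For Igf2 in choroid plexus the libraries of both prefixes moved in opposite directions, and this difference was not tested. On log2(CPM + 1), cisplatin minus PBS was 1.99 over 2 against 2 first-prefix libraries and -2.18 over 4 against 4 second-prefix libraries, without overlap in either. The first-prefix PBS libraries hold 29 and 18 choroid plexus cells, of which 7 and 1 belong to cluster 4. The library-wide ribosomal RNA-like share there was 0.340 and 0.393% in cisplatin libraries and 0.542 and 0.479% in PBS libraries, and in the second prefix every PBS library was above every cisplatin library. The part of the cell numbers or of that share in the Igf2 values was not tested.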

How the results depend on the processing

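The number of gene and type pairs called among the 26 of the 9 genes was 2 without stimulation, 3 with it and 4 averaged. The number became 6, 5 and 9 (the 9 from 6 genes) with no filter on low counts, which tests more pairs. Cisplatin stim against Cisplatin nonstim also called 1 there (Igfbp2 in pericytes). The share of all tests called without the filter is not given here. In the second prefix alone the number became 5, 7 and 8. There 9.68, 8.17 and 17.5% of all tests were called, against 1.64, 3.89 and 9.72% in the main fit. With the ribosomal RNA-like covariate the number became 0, 0 and 0, where 0.102, 1.61 and 1.14% of all tests were called. Under that covariate the calls over all genes and types averaged over stimulation fell to 791 of 69488, against 6757 without it, and the cause was not tested. Leaving out each library gave 2 to 5, 2 to 4 and 3 to 7 calls, and 0 to 0 in the 3 other comparisons. The high counts of 5 and 7 came without PBS nonstim 1. Under RLE size factors, DESeq2, the replicate block, the mitochondrial limit and the 20-cell minimum the counts stayed within 1.5 times. Of these 9 calls, 9 lost the threshold with the covariate, and 1 each (Igf1r in choroid plexus) under DESeq2, the replicate block and the mitochondrial limit.

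The replicate block gave 2, 3 and 4 calls for the drug and 0 for stimulation in either arm and for the interaction. Averaged, it added Igfbp5 in astrocytes (-0.61, adjusted p = 0.0408, edgeR) and dropped Igf1r in choroid plexus (-1.28, adjusted p = 0.0891). In the PBS arm it changed no call. Libraries that correlated best with their own number were 4 of 6 in the PBS arm, 2 of 6 in the cisplatin arm and 3 of 6 in each drug comparison.

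Adjacent cell types that differed in a member's level numbered 9, and 0 in the second prefix alone, whose 8 libraries allow no p under 0.0078 in the exact test. They numbered 4 to 10 when each library was left out, with 5 and 4 without Cisplatin stim 3 and Cisplatin nonstim 3. Igf2 in choroid plexus, not called at -0.57 with stimulation and -1.07 averaged, reversed to 0.34 and 0.11 with the covariate, and with stimulation it ran between -1.36 (without Cisplatin stim 1) and 0.042 (without Cisplatin stim 2) when each library was left out.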
